A study of Mus musculus with 8 samples.

Results

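Small nucleolar RNAs, Cajal body RNAs, Y RNAs and spliceosomal RNAs are short noncoding transcripts that act in complexes with proteins. On arrays of mouse retina they were represented by 61 genes of the 19938 genes compared, and by 67 probe sets. A gene was included if its probe set named a single symbol that starts with Snord, Snora, Scarna, Rny or Rnu followed by a code, and the probe set with the highest mean signal stood for the gene. The genes were chosen by name, and the set was prompted by the large measured differences of Rny1 at 1 week and Snord61 at 4 weeks between MPTP and saline, so the values of these genes are given as a description with no test. The other members entered by name alone. They comprise 31 box C/D small nucleolar RNAs, 20 box H/ACA small nucleolar RNAs, 3 Cajal body RNAs, 2 Y RNAs, 3 spliceosomal RNAs (Rnu12, Rnu5g and Rnu6), the U7 RNA Rnu7 and the U3 RNA Rnu3a.

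Box C/D small nucleolar RNAs guide ribose methylation, and box H/ACA small nucleolar RNAs guide pseudouridylation, mainly of ribosomal RNA. Cajal body RNAs guide the same modifications on spliceosomal RNAs. In mammals most of these guides are released from introns of other genes, often genes of ribosomal proteins and translation factors. Y RNAs are transcribed from their own genes by RNA polymerase III and bind the Ro60 and La proteins, U7 directs the end processing of histone mRNAs, and U3 acts in the cleavage of the ribosomal RNA precursor.

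The study compared male C57BL/6 mice, aged 6 weeks at the outset, that were injected with saline or with MPTP, a toxin of dopaminergic neurons whose metabolite blocks mitochondrial complex I. There were 4 groups of 6 mice: saline for 1 week (7 days), MPTP for 1 week, saline for 4 weeks (28 days) and MPTP for 4 weeks. Each group has 2 arrays, hybridised with a pool of 4 retinas each, whose RNA was purified on columns and amplified from 100 ng. The labels do not state that the pools of a group came from different mice, so p-values measure only the spread between arrays, which may be technical. All animals were of one strain and sex, no other agent is named, and the MPTP dose is not given in the sources used here.

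Values are log2 signals per probe set, and each difference below is followed by ± its standard error from limma with 2 arrays per group. The tissue label was checked on rod genes: Gnat1, Pde6b, Nrl and Sag had a mean log2 signal between 11.40 and 11.53 on the 8 arrays. Saline array 2 and MPTP array 1 at 1 week stood apart from the rest, with scores of 15.7 and 19.1 on the first principal component (38.3% of the variance) against -9.39 to -0.39 on the others. MPTP array 2 at 1 week had the highest mean signal of 6 lens genes (8.69 against 7.37 to 8.27) and of 5 pigment epithelium genes (8.38 against 7.57 to 8.11). These are whole retinas, in which fewer cells of a type and less RNA per cell cannot be told apart. The probe sequences were not used here, so signal from a mature small RNA and from a longer transcript of its locus cannot be told apart either.

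Of the 61 members, 54 lie inside the span of another RefSeq gene, and the 7 that do not are Rnu12, Rnu3a, Rnu6, Rnu7, Rny1, Rny3 and Snord118. Rny1, Rny3 and Rnu6 are polymerase III genes, whereas Rnu12, Rnu7, Rnu3a and Snord118 (the U8 RNA) have promoters of their own for polymerase II. A further 61 probe sets name several symbols of which at least 1 is a small RNA, among them 24 for Snord116l, 9 for Rnu1b and 4 for Rnu3b, and were outside the rule. None of these reached an adjusted p under 0.05 in any comparison with limma, the smallest being 0.524. Their count at unadjusted p under 0.05 was highest for the difference between times in MPTP retina. There 8 were lower, as were 4.36% of all genes compared. Of the 6 members with 2 probe sets, 3 (Scarna17, Snord118 and Snora30) had the same value in both on every array. Their signal therefore cannot be assigned to 1 of the 2.

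No member passed the adjusted threshold of 0.05 in any of the 6 comparisons, and neither did any other gene, a background of 0% in each (limma, Benjamini-Hochberg over all 19938 genes). The smallest adjusted p of a member was 0.507, for the difference between 4 weeks and 1 week in MPTP retina. The members are therefore described by their values, by the count whose arrays did not overlap between groups and by the count at an unadjusted p under 0.05, each beside the same count over all genes.

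As a set, the small RNA genes had higher signal at 1 week than at 4 weeks, in saline and in MPTP retina. The median over members of the deviation from a gene's mean over the 8 arrays was -0.022 and 0.070 on the saline arrays at 1 week, and 0.081 and 0.048 on the MPTP arrays at 1 week. It was -0.035 and -0.058 on the saline arrays at 4 weeks, and -0.085 and -0.018 on the MPTP arrays at 4 weeks. Over all genes the same median lay between -0.020 and 0.016 on every array. The values of saline array 1 at 1 week and MPTP array 2 at 4 weeks overlapped. The numbers of members above their own mean were 28 and 37 on the saline arrays at 1 week and 43 and 38 on the MPTP arrays at 1 week, but 22, 17, 18 and 24 on the 4 arrays at 4 weeks, of 61. MPTP array 1 at 1 week held the highest value of 18 members and MPTP array 1 at 4 weeks the lowest value of 14. The box C/D genes showed their highest medians, 0.15 and 0.17, on saline array 2 and MPTP array 1 at 1 week, the arrays that stood apart over all genes. Of the 5 cone genes measured (Opn1sw, Opn1mw, Arr3, Gnat2 and Pde6h), all were lower at 4 weeks than at 1 week in saline and in MPTP retina. Their mean log2 signal was 10.17 to 10.22 on the arrays at 1 week and 9.93 to 10.04 at 4 weeks, with median differences between times of -0.17 in saline and -0.23 in MPTP retina. The dimmest of them, Pde6h, had signals of 8.62 to 8.87, and the part of cones in the shift of the small RNA genes was not tested.

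**Figure D1:**
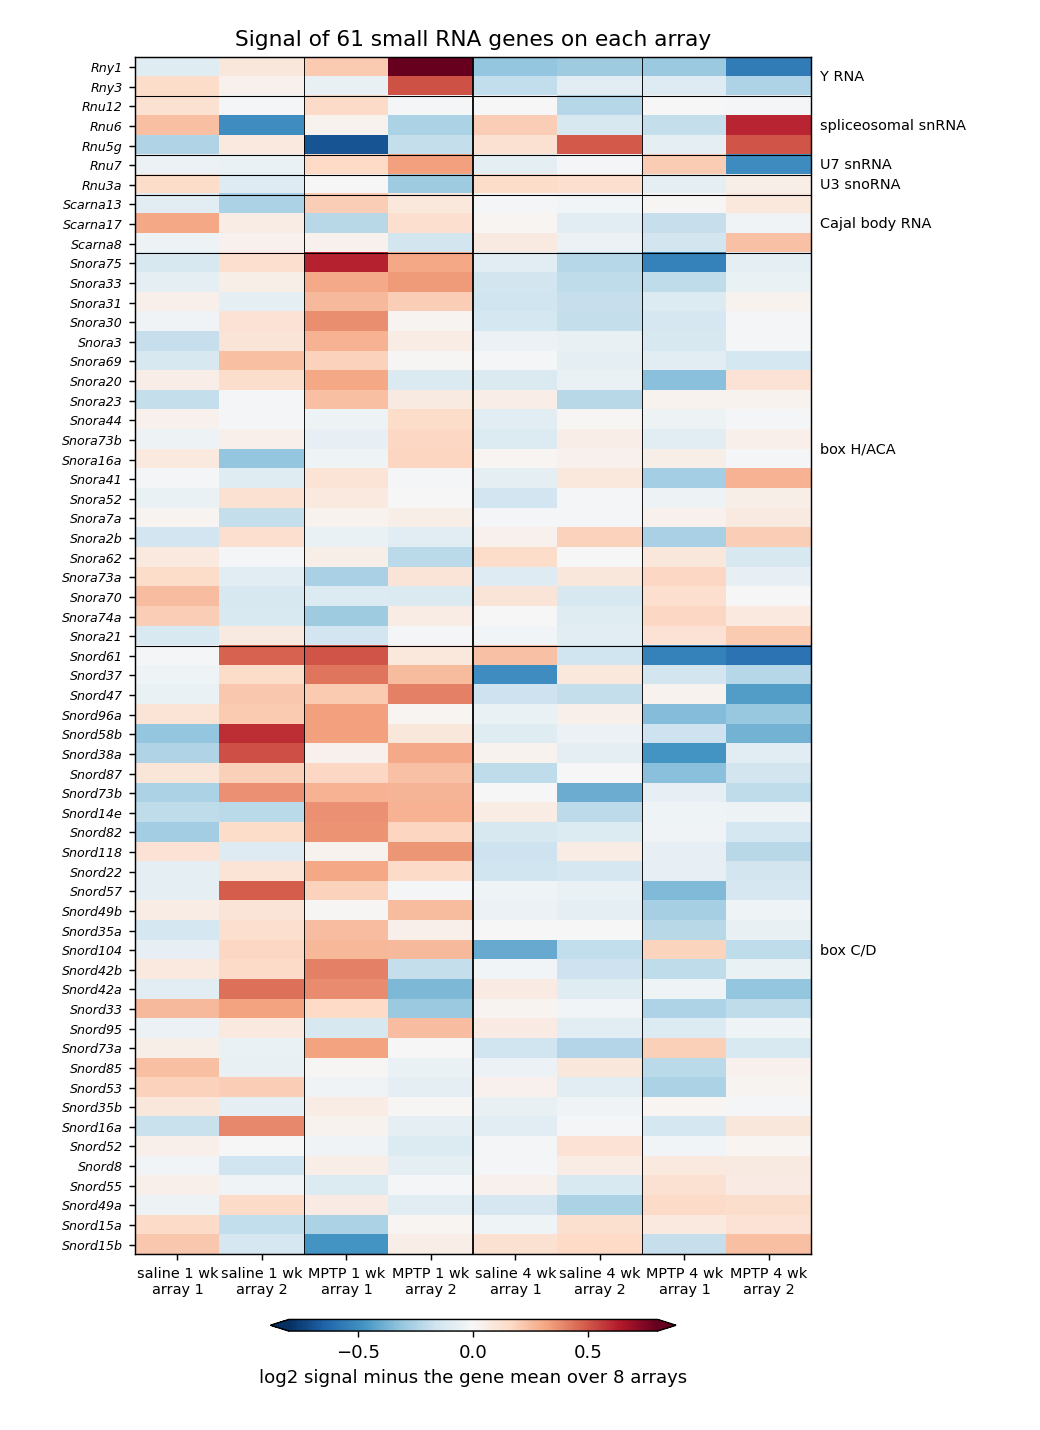
Colour shows the log2 signal of each of the 61 genes minus its mean over the 8 arrays, red above and blue below, with arrays in columns and genes in rows by class. Within a class, genes are ordered by the difference between 4 weeks and 1 week in MPTP retina; red cells gather on the 1 week arrays, where MPTP array 1 had 43 of 61 members above their mean, and blue cells on the 4 week arrays.

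Rny1 encodes the Y1 RNA, which binds Ro60 and has a role in the initiation of DNA replication. Its log2 signal was 8.20 and 8.38 on the saline arrays and 8.50 and 9.55 on the MPTP arrays at 1 week. At 4 weeks it was 7.98 and 8.01 with saline and 7.99 and 7.73 with MPTP. MPTP array 2 at 1 week was the highest of the 8, the MPTP arrays at 1 week lay above both saline arrays, and at 4 weeks the groups overlapped. The difference between MPTP and saline was 0.73 ± 0.26 at 1 week (1.66-fold), the highest of all genes, and -0.13 ± 0.26 at 4 weeks. Without MPTP array 2 at 1 week the first of these was 0.21, and without MPTP array 1 it was 1.26. In MPTP retina Rny1 was lower at 4 weeks than at 1 week by 1.16 ± 0.26 on the log2 scale (2.24-fold), the lowest value of all genes, and the difference was -0.64 without MPTP array 2 at 1 week and -1.69 without MPTP array 1. In saline retina the difference between the times was -0.30 ± 0.26, and there too both arrays at 4 weeks lay below both at 1 week. The array with the highest Rny1 signal is the one with the highest lens and pigment epithelium signal, and their part in the result was not tested.

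Rny3, the gene of the Y3 RNA, also bound by Ro60, had signals of 10.82 and 10.71 on the saline arrays and 10.61 and 11.18 on the MPTP arrays at 1 week. At 4 weeks they were 10.48 and 10.59 with saline and 10.57 and 10.42 with MPTP. As for Rny1, MPTP array 2 at 1 week was the highest, but the MPTP and saline arrays overlapped at both times, and all 4 arrays at 1 week lay above all 4 at 4 weeks. The differences between MPTP and saline were 0.13 ± 0.16 at 1 week and -0.03 ± 0.16 at 4 weeks, and the former was -0.15 without MPTP array 2. Between times Rny3 differed by -0.23 ± 0.16 in saline and by -0.40 ± 0.16 in MPTP retina, with no overlap in either. The genes of proteins that bind Y RNAs differed little: of 8 measured, 6 were above 0 at 1 week and 5 at 4 weeks, with medians of 0.044 and 0.0098, and none was at unadjusted p under 0.05 at either time. Ro60 itself was at -0.20 ± 0.11 at 1 week and at -0.12 ± 0.11 at 4 weeks for MPTP against saline. Ssb, which encodes La, differed by 0.02 ± 0.09 at either time.

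Snord61 is a box C/D guide inside Rbmx, which encodes an RNA-binding protein of splicing. Its signal was 5.81 and 6.29 with saline and 6.32 and 5.90 with MPTP at 1 week, where the groups overlapped. At 4 weeks it was 6.05 and 5.66 with saline and 5.28 and 5.22 with MPTP, the lowest pair of the series. The difference between MPTP and saline was 0.06 ± 0.19 at 1 week and -0.60 ± 0.19 at 4 weeks (1.52-fold lower), the lowest of all genes at that time. In MPTP retina Snord61 was lower at 4 weeks than at 1 week, with a difference of -0.86 ± 0.19, against -0.19 ± 0.19 in saline retina. The difference at 4 weeks lay between -0.80 and -0.41 when 1 array was left out.

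**Figure D2:**
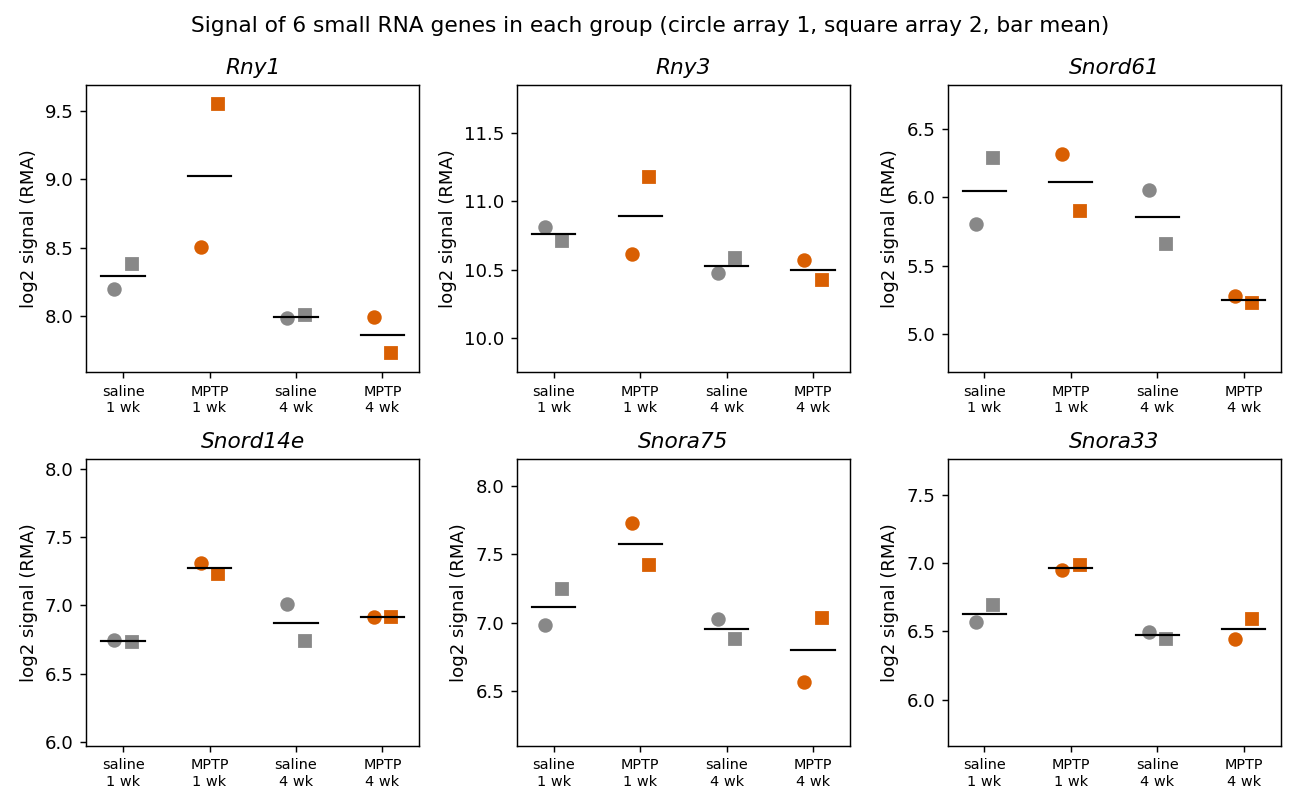
Each panel plots the log2 signal of 1 gene on the 8 arrays by group, grey for saline and orange for MPTP, with a bar at the mean of the 2 arrays; every vertical axis spans the same range. Rny1 reached 9.55 on MPTP array 2 at 1 week, Snord61 was lowest at 5.28 and 5.22 with MPTP at 4 weeks, and Snord14e, Snora75 and Snora33 were above both saline arrays with MPTP at 1 week.

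At 1 week, 39 of the 61 members had higher signal with MPTP than with saline, with a median difference of 0.045 against -0.0081 over all genes. On 13 members both MPTP arrays lay above both saline arrays, and on 3 both lay below, where 12.5% and 13.8% of all genes did. At unadjusted p under 0.05, 7 members were higher and 2 lower, against 1.87% and 2.36% of all genes. The count of 7 includes Rny1, whose value prompted the choice. Members above 0 numbered 35 without saline array 1, 35 without MPTP array 1, 42 without saline array 2 and 38 without MPTP array 2. Without both arrays that stand apart they numbered 36, with a median of 0.070. The median was 0.012 without saline array 1, 0.018 without MPTP array 1, 0.080 without saline array 2 and 0.078 without MPTP array 2.

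The highest box C/D value at 1 week belonged to Snord14e, a guide inside the chaperone gene Hspa8. Its signal was 6.75 and 6.73 with saline and 7.31 and 7.23 with MPTP. The MPTP arrays lay above all 6 other arrays, which ranged up to 7.01, and the difference was 0.53 ± 0.10 (1.44-fold, adjusted p = 0.9998 over all genes in limma). At 4 weeks the difference was 0.04 ± 0.10, and the difference of the MPTP effects was -0.49 ± 0.15. Snord82, inside the nucleolin gene Ncl, followed with signals of 8.23 and 8.66 against 8.87 and 8.68, a difference of 0.33 ± 0.14. Snord37, inside the elongation factor gene Eef2, differed by 0.28 ± 0.16 without overlap, and Snord104 by 0.21 ± 0.14.

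Among box H/ACA genes, Snora75, also inside Ncl, had signals of 6.98 and 7.24 with saline and 7.73 and 7.42 with MPTP at 1 week, a difference of 0.46 ± 0.16. At 4 weeks its signals were 7.02 and 6.88 with saline and 6.57 and 7.03 with MPTP, which overlapped. Snora33, inside the ribosomal protein gene Rps12, was 6.57 and 6.69 with saline and 6.95 and 6.98 with MPTP at 1 week, a difference of 0.34 ± 0.09. Its MPTP arrays at 1 week were the highest of the 8, the others reaching 6.69. Snora23 inside Ipo7 differed by 0.26 ± 0.12 and Snora31 inside Tpt1 by 0.24 ± 0.09, both without overlap. In all, 14 of the 20 box H/ACA genes and 19 of the 31 box C/D genes were above 0 at 1 week, with medians of 0.047 and 0.046, and 5 of each class lay above saline without overlap, as did 12.5% of all genes.

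The 6 lowest values among small nucleolar RNAs at 1 week were those of 4 box C/D and 2 box H/ACA genes. Snord33, inside the ribosomal protein gene Rpl13a, had 7.55 and 7.61 with saline and 7.45 and 6.99 with MPTP, a difference of -0.36 ± 0.13. At 4 weeks it was again lower on both MPTP arrays (7.04 and 7.09 against 7.31 and 7.27, -0.22 ± 0.13), and over both times the difference was -0.29 ± 0.09. Snord53, inside Wdr43, had 8.05 and 8.07 with saline and 7.84 and 7.80 with MPTP at 1 week (-0.24 ± 0.11). Snord15b, Snora70, Snord42a and Snora74a had values of -0.26 to -0.15 with arrays that overlapped, and each changed sign when a single array was left out.

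Cajal body and spliceosomal RNAs gave no common direction. Scarna13, inside Snhg10, had 7.06 and 6.90 with saline and 7.35 and 7.24 with MPTP at 1 week, a difference of 0.31 ± 0.09 without overlap, and 0.06 ± 0.09 at 4 weeks. Scarna17 differed by -0.23 ± 0.13 and -0.07 ± 0.13, and Scarna8, inside Haus6, by -0.05 ± 0.13 and 0.03 ± 0.13, at 1 and 4 weeks. Rnu12, the U12 RNA of the minor spliceosome, differed by 0.02 ± 0.11 at 1 week and 0.11 ± 0.11 at 4 weeks, with overlap at both. Rnu5g and Rnu6, genes of the U5 and U6 RNAs, had dim probe sets, at percentiles 2.98 and 0.0451 of the mean signal of all genes. Rnu5g differed by -0.36 ± 0.22 and -0.09 ± 0.22, and Rnu6 by 0.02 ± 0.28 and 0.17 ± 0.28, the widest errors of the spliceosomal members. Rnu7 was higher with MPTP at 1 week (5.52 and 5.52 against 5.72 and 5.89, 0.29 ± 0.18) and differed by -0.11 ± 0.18 at 4 weeks. Rnu3a was at -0.16 ± 0.12 at both times, without overlap at 4 weeks.

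At 4 weeks the members as a whole did not lean to either side. Of the 61, 29 were above 0, and the median difference was -0.0086 against 0.0043 over all genes. Both MPTP arrays lay above saline on 11 members and below on 9, where 17.4% and 17.9% of all genes did, which is close to the share of the members. At unadjusted p under 0.05, 1 member was higher and 2 were lower, Snord61 among the latter, against 1.10% and 0.813% of all genes. The median was -0.023 without saline array 1, -0.0052 without saline array 2, 0.030 without MPTP array 1 and -0.014 without MPTP array 2.

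The member higher at 4 weeks at unadjusted p under 0.05 was Snord49a, with 5.58 and 5.47 on saline and 5.87 and 5.86 on MPTP arrays, a difference of 0.34 ± 0.10. At 1 week it was at -0.06 ± 0.10, so the difference of the MPTP effects was 0.40 ± 0.14. Its neighbour Snord49b, in the same transcript unit 2410006H16Rik, was at 0.05 ± 0.11 and -0.09 ± 0.11. Snord104 (0.29 ± 0.14), Snord73a (0.23 ± 0.13) and Snora21 (0.22 ± 0.10) followed, of which Snord104 overlapped between groups. Snora74a (0.17 ± 0.14) and Snord55 (0.14 ± 0.09) completed the highest 6 small nucleolar RNAs and lay above saline without overlap. Besides Snord61, the lowest was Snord96a inside Rack1, with 5.11 and 5.20 on saline and 4.82 and 4.86 on MPTP arrays, a difference of -0.32 ± 0.11. Snord38a (-0.26 ± 0.22), Snord33, Snord57 (-0.20 ± 0.16) and Snord58b (-0.20 ± 0.23) were next, and each lay below saline without overlap. Snord58b has a second probe set that differed from the one used by up to 0.476 on an array.

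Over both times, 34 members were higher with MPTP, with a median of 0.030 against -0.0017 over all genes. On 2 members, Scarna13 and Snora7a, all 4 MPTP arrays lay above all 4 saline arrays, and on none below, where 1.01% and 1.49% of all genes did. At unadjusted p under 0.05, 7 members were higher and 2 lower, against 2.30% and 2.47%. Without both arrays that stand apart 3 were higher and 4 lower (2.89% and 3.0% of all genes). With a single array of 1 week left out, 2 were higher and 5 lower without MPTP array 1 (3.61% and 2.80% of all genes), and 3 and 5 without saline array 1 (3.97% and 4.07%). Without saline array 2 they were 4 and 2 (1.65% and 2.36%). Among the fits with arrays left out, more members were thus lower than higher only without MPTP array 1 at 1 week, saline array 1 at 1 week or both arrays that stand apart. Without any other single array, at 1 or 4 weeks, more members were higher than lower. The median ranged from 0.0031 to 0.039 when 1 array was left out. Rny1 had the highest value of the members (0.30 ± 0.22). Among small nucleolar RNAs the highest were Snord14e (0.29 ± 0.10), Snord104 (0.25 ± 0.09) and Snord73a (0.20 ± 0.09), and the lowest Snord33, Snord61 (-0.27 ± 0.16) and Snord15b (-0.18 ± 0.13), with Rnu5g at -0.22 ± 0.15.

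The comparison of times gave the largest counts. In MPTP retina, 44 of the 61 members had lower signal at 4 weeks than at 1 week, with a median difference of -0.13 against 0.015 over all genes. On 26 members both arrays at 4 weeks lay below both at 1 week and on 9 they lay above, where 21.5% and 22.8% of all genes did. At unadjusted p under 0.05, 16 members were lower and 2 higher, against 4.36% and 5.43% of all genes. Rny1 and Snord61 are among the 16, and without them 14 of 59 remain with a median of -0.13. Without MPTP array 1 at 1 week the median was -0.049 and 12 members were lower, and 18 were lower without both arrays that stand apart, when 2.30% and 3.99% of all genes were lower. Neither the count nor the median of the members has a test of its own here.

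The same direction was recorded in saline retina with smaller values. There 43 members were lower at 4 weeks, with a median of -0.087 against 0.0012 over all genes. On 18 members both arrays at 4 weeks lay below both at 1 week, and on 3 above, where 15.1% and 12.7% of all genes did. At unadjusted p under 0.05, 3 were lower and none higher in limma, against 1.25% and 0.873% of all genes. Without saline array 1 at 1 week 10 were lower and 2 higher, when the shares of all genes had risen to 3.13% and 5.33%. None was lower without saline array 2 at 1 week (2.16% of all genes) or saline array 1 at 4 weeks (0.943%). The difference of the MPTP effects, which is also the difference between these comparisons, had a median of -0.057 over members against 0.0079 over all genes, with 4 lower and 1 higher at unadjusted p under 0.05 (0.537% and 1.42% of all genes). Without saline array 2 at 1 week 9 were lower and 2 higher (2.09% and 5.16% of all genes), without saline array 1 at 1 week 3 and 3 (1.11% and 1.09%), and without saline array 1 at 4 weeks 2 and 1 (0.296% and 0.818%). The median became -0.10 without MPTP array 2 at 1 week and -0.030 without saline array 1 at 1 week.

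Box C/D genes made up most of the lower members, but they are also 31 of the 61 members. In MPTP retina 25 of 31 were lower at 4 weeks, with a median of -0.27 and 11 at unadjusted p under 0.05, where 4.36% of all genes were lower at that p. Without the arrays that stand apart 21 were lower, with a median of -0.23 and 13 at that p, against 3.99% of all genes. In saline retina 25 of 31 were lower, with a median of -0.16, which was -0.084 with 18 lower without those arrays. Of the 20 box H/ACA genes 13 were lower in MPTP retina, with a median of -0.061 and 3 at unadjusted p under 0.05 (4.36% of all genes). The median was -0.14 after quantile normalization, and -0.047 with 11 lower without the arrays that stand apart. In saline retina 14 were lower with a median of -0.044, which was -0.032 with 13 lower without those arrays. Whether the classes differ from each other was not tested.

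Besides Rny1 and Snord61, the lowest values in MPTP retina were those of Snora75 (-0.77 ± 0.16), Snord37 (-0.53 ± 0.16), Snord47 (-0.51 ± 0.15) and Snord96a (-0.50 ± 0.11). Snord37 had 5.13 and 4.95 at 1 week and 4.55 and 4.47 at 4 weeks with MPTP, against 4.67 and 4.84, then 4.20 and 4.78, with saline. Snord47, inside the growth arrest transcript Gas5, had 7.70 and 7.89 at 1 week and 7.52 and 7.04 at 4 weeks with MPTP. On both genes the MPTP arrays of the times did not overlap. Snora33 (-0.45 ± 0.09), Snord87 (-0.44 ± 0.11), Snord14e (-0.36 ± 0.10) and Snord22 (-0.34 ± 0.10) were lower with smaller errors. The adjusted p of each of these 8 genes was 0.507 in limma.

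The members with higher signal at 4 weeks in MPTP retina were fewer. Rnu5g, on its dim probe set, had 3.41 and 3.91 at 1 week and 4.03 and 4.60 at 4 weeks. Its saline arrays stood at 3.86 and 4.18, then 4.22 and 4.59, so the arrays at 4 weeks were above those at 1 week in both treatments. Snora21 (0.25 ± 0.10), Snord15b (0.24 ± 0.19) and Snora74a (0.24 ± 0.14) were the highest small nucleolar RNAs, and only Snora21 and Snora74a had no overlap among these 3. In saline retina the lowest small nucleolar RNAs were Snord104 (-0.35 ± 0.14), Snord33 (-0.29 ± 0.13) and Snord37 (-0.26 ± 0.16), and the highest Snora16a (0.14 ± 0.13), Snord14e (0.13 ± 0.10) and Snora2b (0.12 ± 0.15). Rnu5g (0.38 ± 0.22), Rnu6 (0.16 ± 0.28) and Scarna13 (0.16 ± 0.09) lay above all of these.

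**Figure D3:**
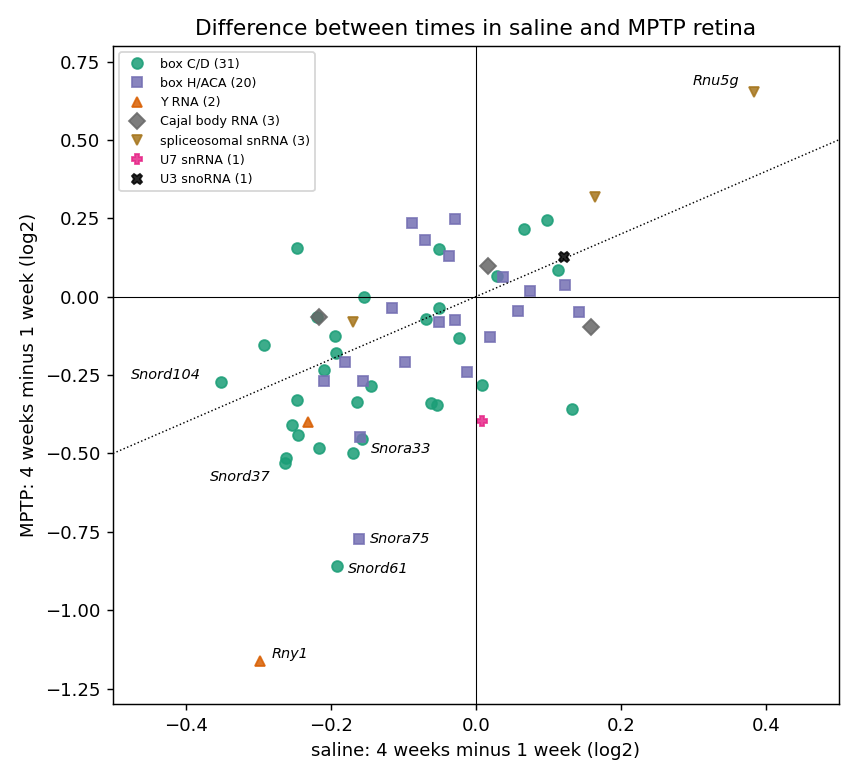
Each point is 1 of the 61 genes, with its difference between 4 weeks and 1 week in saline retina on the horizontal axis and in MPTP retina on the vertical axis, both in log2 units, and the shape and colour giving the class. The dotted line marks equal values, the axes have different scales, and most points lie below 0 on both axes (43 in saline, 44 in MPTP), Rny1 and Snord61 lowest.

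The signal of a probe set moved with these differences. In MPTP retina the 9969 genes above percentile 50 of the mean signal had a median difference of -0.061 between times and the 9969 below it 0.093. The 20 members above that percentile had a median of -0.25, with 18 lower, and the 41 members below it a median of -0.071, with 26 lower. In saline retina the medians were -0.16 for the brighter members and -0.024 for the brighter genes. The brighter small nucleolar members include Snora3, inside Rpl27a, with 7.88 and 8.17, then 8.02 and 8.01, on saline arrays at 1 and 4 weeks. With MPTP it had 8.35 and 8.13, then 7.94 and 8.05, and the arrays of the times did not overlap. Snord57, inside Nop56, had 8.39 and 8.19, then 7.85 and 8.07, with MPTP.

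Most guides are cut from introns of a host gene, so the signal of a member was set beside that of the gene that contains it. For 30 members the containing gene was measured, 26 genes in all. In MPTP retina between times, 20 of 30 pairs had the same sign, each with both values below 0. Every containing gene but Nop56 (0.0076) and Rpl27a (0.0072) was below 0, with a median of -0.13. The count of pairs therefore mostly repeats how many of these small RNAs were lower. The median size of the difference was 0.24 for the small RNA and 0.15 for the containing gene, and the small RNA had the larger difference in 22 pairs. Standard errors differed within pairs, at 0.16 for Snord37 and 0.08 for Eef2, but 0.09 for Snord8 and 0.12 for Chd8. A larger error can by itself give a larger size, and its part was not tested. For MPTP against saline the signs were the same in 17 pairs at 1 week and in 13 at 4 weeks. Pairs share arrays, and 4 containing genes enter with 2 members each, so these counts are a description.

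Snord14e and Hspa8 differed at 1 week: the guide was at 0.53 and Hspa8 at -0.08 ± 0.10, with 11.27 and 11.47 on saline and 11.32 and 11.27 on MPTP arrays, which overlapped. Snord37 was at 0.28 and Eef2 at 0.0016 ± 0.08. Snord61 and Rbmx had the same sign: Rbmx was lower at 4 weeks than at 1 week with MPTP (8.58 and 8.22, then 8.09 and 8.11, -0.30 ± 0.13), and at 4 weeks it differed from saline by -0.06, where Snord61 differed by -0.60. Ncl, whose protein nucleolin is abundant in the nucleolus and which contains both Snora75 and Snord82, was at 0.19 ± 0.12 at 1 week, on the same side as both guides (0.46 and 0.33), and at -0.18 ± 0.12 between times with MPTP, on the same side as both guides (-0.77 and -0.35). At 4 weeks it was at 0.049 ± 0.12 against saline, where Snora75 was at -0.15 and Snord82 at 0.036. Haus6 and Scarna8 had opposite signs at 1 week (0.30 ± 0.12 and -0.05), and so had Rpl23 and Snora21 (0.20 ± 0.12 and -0.06). Members that share a containing gene gave 10 pairs, of which 6 had the same sign at 1 week, 5 at 4 weeks, 8 between times in saline and 7 in MPTP retina.

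**Figure D4:**
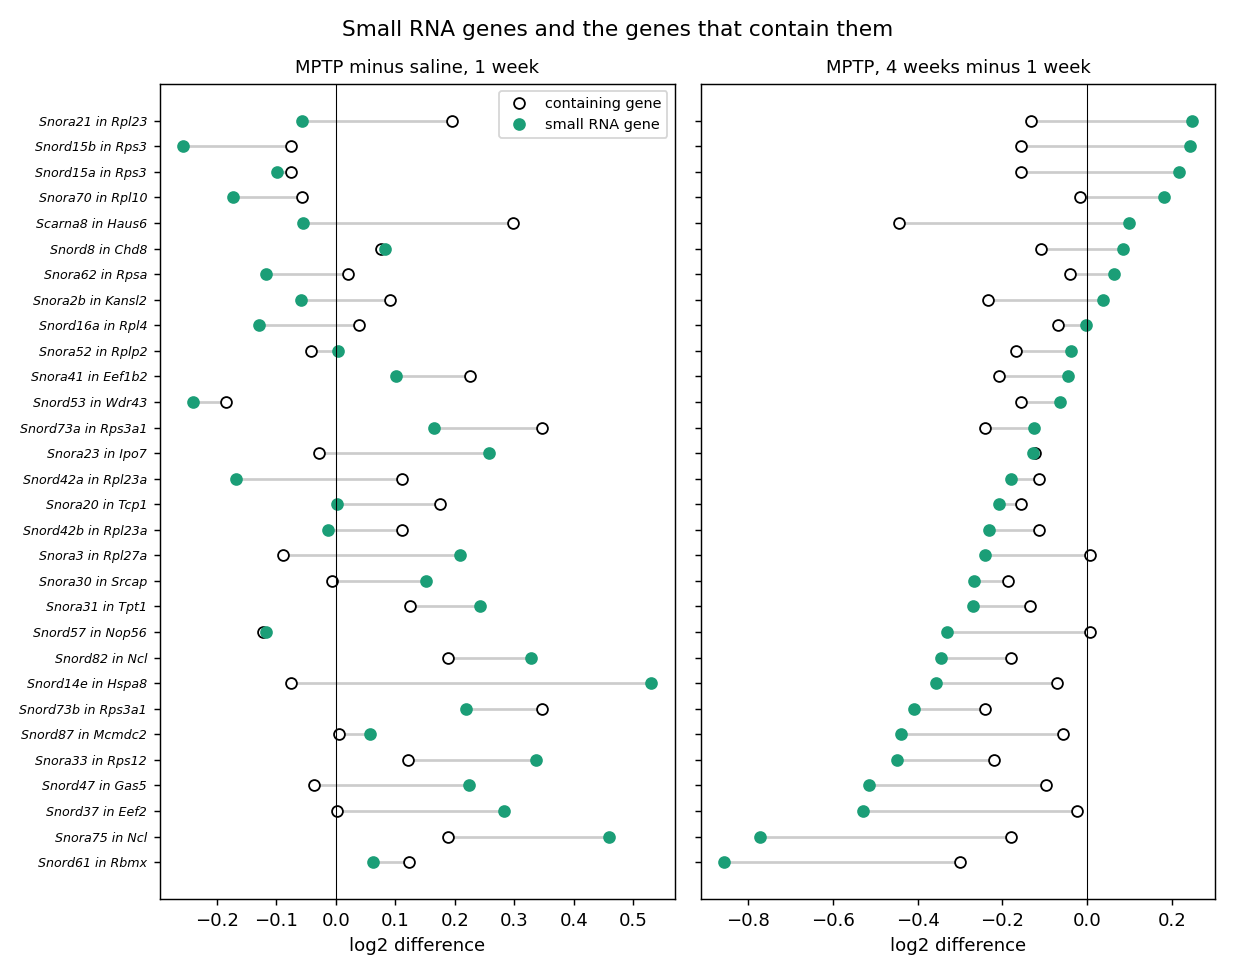
Each row is a small RNA gene (filled) with the gene that contains it (open), with the log2 difference on the horizontal axis for MPTP minus saline at 1 week (left) and 4 weeks minus 1 week in MPTP retina (right). A grey line joins the pair, the panels have different scales, and on the right the small RNA lies farther from 0 in 22 of the 30 pairs. Standard errors are not drawn and differ between the genes of a pair.

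The start regions of Ncl and Rbmx are shown as examples. Their guides had the same direction as the containing gene between times in MPTP retina. That held in 20 of 30 pairs, so it does not single out these genes. They are the RefSeq windows of GRCm38.p6 from 250 bases before to 50 bases after the annotated start, both on the minus strand, at chr1:86359406-86359705 for Ncl and chrX:57392987-57393286 for Rbmx, printed 5′ to 3′. Capitals mark matches on either strand to GGGCGG (read as CCGCCC on the other strand), CCAAT and TATAAA.
Ncl: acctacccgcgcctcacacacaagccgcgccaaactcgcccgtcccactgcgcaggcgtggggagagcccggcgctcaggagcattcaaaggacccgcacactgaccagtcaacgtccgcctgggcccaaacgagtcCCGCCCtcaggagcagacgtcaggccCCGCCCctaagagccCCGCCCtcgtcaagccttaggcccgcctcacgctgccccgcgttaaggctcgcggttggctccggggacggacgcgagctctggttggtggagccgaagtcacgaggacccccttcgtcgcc
Rbmx: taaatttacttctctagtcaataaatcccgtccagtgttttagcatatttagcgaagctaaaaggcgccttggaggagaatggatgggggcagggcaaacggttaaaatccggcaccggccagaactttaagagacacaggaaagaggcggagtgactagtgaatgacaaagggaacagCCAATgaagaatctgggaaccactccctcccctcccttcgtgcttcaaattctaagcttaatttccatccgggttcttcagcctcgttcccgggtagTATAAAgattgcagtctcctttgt
The Ncl window held 3 matches to GGGCGG and had a GC content of 69.3%. The Rbmx window held 1 CCAAT and 1 TATAAA, and had a GC content of 47.0%. Of all 32851 windows in the table, 35.7% held GGGCGG, 37.4% CCAAT and 13.6% TATAAA, so each motif is common and a match is a description of the sequence.

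Genes of the proteins that build and carry these RNAs were described from lists by complex. Over all genes the median difference between MPTP and saline was -0.0081 at 1 week and 0.0043 at 4 weeks. Of 8 measured genes for box C/D proteins, 6 were above 0 at 1 week and 4 at 4 weeks, with medians of 0.035 and -0.013, and none was at unadjusted p under 0.05. Fbl, the methyltransferase fibrillarin, was at 0.14 ± 0.11 and 0.07 ± 0.11. Of 6 for box H/ACA proteins, 3 were above 0 at each time. At 1 week 2 were higher at unadjusted p under 0.05, where 1.87% of all genes were. They were Nop10, a core subunit, at 0.29 ± 0.12, and Shq1, an assembly factor, at 0.20 ± 0.09. Dkc1, the pseudouridine synthase, was at -0.17 ± 0.11 at 4 weeks. Of 10 shared assembly factors, 5 were above 0 at 1 week and 1 at 4 weeks, with none at that p. Coil, the scaffold of Cajal bodies, was at -0.18 ± 0.10 at 1 week.

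Of 15 measured genes for Sm and LSm proteins, which form rings around spliceosomal RNAs, 10 were above 0 at 1 week and 11 at 4 weeks, with medians of 0.070 and 0.039. At unadjusted p under 0.05, 2 were higher at 1 week and 1 at 4 weeks, where 1.87% and 1.10% of all genes were. Snrpd3 had 8.86 and 8.59 with saline and 9.12 and 9.04 with MPTP at 1 week (0.36 ± 0.10), and 8.72 and 8.67 against 8.96 and 8.94 at 4 weeks (0.26 ± 0.10), with no overlap at either time. Lsm3 was at 0.27 ± 0.10 at 1 week. Of 25 genes for proteins specific to single spliceosomal particles, 11 were above 0 at 1 week, with Snrnp48 of the minor spliceosome at 0.23 ± 0.10. Of 9 genes of the SMN complex, which loads Sm rings, 6 were above 0 at 1 week. Ddx20 was at 0.21 ± 0.08 and Gemin5 at -0.18 ± 0.09. Of 46 genes for transcription and trimming of small RNAs, 26 were above 0 at 1 week and 12 at 4 weeks. At 4 weeks 1 of the 46 was lower at unadjusted p under 0.05, where 0.813% of all genes were. It was the Integrator gene Ints6 at -0.22 ± 0.08. The smallest adjusted p of these genes was 0.999756 at 1 week and 0.999876 at 4 weeks against saline (limma, over all genes).

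The difference between times in MPTP retina was also below 0 for most genes of the lists counted next. It was below 0 for 7 of 8 genes of box C/D proteins (median -0.11), for 12 of 15 Sm and LSm genes (-0.12), for 22 of 25 of the particle-specific genes (-0.094) and for 39 of 46 genes of transcription and trimming (-0.10). These genes lie mostly in the brighter part of the table, where the median over all genes was -0.061. The remaining lists are given by their median deviation from the gene mean on the MPTP arrays. For box H/ACA proteins it was 0.037 and 0.012 at 1 week, then -0.028 and 0.033 at 4 weeks, which overlapped. For shared assembly factors it was 0.0036 and 0.020, then -0.097 and -0.011. For the SMN complex it was 0.044 and 0.043, then 0.030 and -0.032. For the Y RNA proteins it was 0.043 and 0.037, then 0.0038 and -0.042. For a list of host genes of small nucleolar RNAs, 21 of them measured, it was 0.036 and 0.053, then -0.043 and -0.034. On the saline arrays the host genes were at 0.051 and 0.037 at 1 week, then -0.044 and -0.037 at 4 weeks.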

How the data were processed

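The deposited table holds log2 values of 28944 probe sets on 8 arrays. The submitters' processing notes name RMA and Affymetrix Expression Console as the authors' tools and give no version. RMA normalizes across arrays, so a shift common to most genes would be removed. Gene names came from the platform annotation, and 21789 probe sets with exactly 1 symbol gave 19938 genes, each by its probe set with the highest mean. RefSeq of GRCm38.p6 served for names, containing genes and start windows; strand was not compared. With arrays, their number limits the precision.

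Differences come from two-sided fits of limma 3.58.1 (lmFit, contrasts.fit, eBayes; R 4.3.3) to all 8 arrays, with 1 mean for each group (4 residual degrees of freedom), or with time and treatment as terms for MPTP over both times (5), and adjusted by Benjamini-Hochberg over all genes at 0.05. No filter on dim probe sets was used. The code was tested on simulated data.

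The members, gene lists and alternatives were chosen with earlier results of these data known. Named are all Y, spliceosomal, U3, U7 and Cajal body RNAs, Rny1 and Snord61. Among the small nucleolar RNAs they are the 6 highest and 6 lowest at 1 and 4 weeks, the 3 highest and 3 lowest elsewhere, the 5 brightest and the 5 with the largest range. Containing genes were added, with some of the 2 genes per protein list that had the smallest p at each time. Other genes picked by that rule are not named. Further members, Ro60, Ssb and other examples were chosen after their values were seen. Alternatives were quantile, cyclic loess and median normalization, a percentile 50 filter, mean probe sets, other variance settings, a replicate block and arrays left out. Figures were drawn with matplotlib 3.10.9.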

Additional observations from a re-analysis of the deposited data

How the results depend on the processing

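With 2 arrays per group and 4 residual degrees of freedom, small differences could not be told from the spread. In the 6 comparisons the count of genes past the adjusted threshold was 0 in 88 of 90 alternatives. It was 1 for the difference between times in MPTP retina without MPTP array 1 at 1 week (range 0 to 1) and without both arrays that stand apart. That gene was Rny1 (-1.69), one of the genes that prompted the choice. Array numbers do not pair the arrays (correlations of same-number deviations from -0.383 to 0.207). The replicate block left 0 genes past the threshold, as did a block with exchanged numbers at 1 week, chosen after seeing the data. Both blocks are balanced over the groups, so they could not move a difference or a median.

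The filter at percentile 50 gave medians of 0.14 (MPTP at 1 week), -0.13 (difference of the MPTP effects), -0.16 (time, saline), -0.25 (time, MPTP) and 0.081 (both times). The time median in MPTP retina was -0.17 after centring and -0.049 without the arrays that stand apart. With 1 array left out, medians ranged from -0.023 to 0.030 (MPTP at 4 weeks), -0.10 to -0.030 (difference of effects) and -0.17 to -0.049 (time, MPTP). The median deviation on MPTP array 1 at 1 week was 0.13 with quantile normalization, 0.14 with loess, 0.13 centred and 0.19 filtered, and on MPTP array 2 at 1 week 0.11 filtered. The cause was not tested, apart from the fewer genes under the filter.

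Of 716 values of single genes under other settings, 709 kept their direction and side of the threshold. Without the arrays that stand apart, signs turned at 1 week for Rnu12 (-0.13), Rnu5g (0.052) and Rnu6 (-0.49), and between times for Snora16a (-0.053, saline), Snord61 (0.048, saline) and Snord15b (-0.022, MPTP). With 1 array left out, 33 of 376 values turned. At 1 week the ranges were -0.062 to 0.10 for Rnu12, -0.35 to 0.39 for Rnu6, -0.15 to 0.42 for Rny3, -0.14 to 0.035 for Scarna8, -0.36 to 0.015 for Snora70, -0.33 to 0.020 for Snora74a, -0.52 to 0.0091 for Snord15b, -0.54 to 0.20 for Snord42a and -0.18 to 0.30 for Snord61. At 4 weeks they were -0.0052 to 0.22 for Rnu12, -0.38 to 0.20 for Rnu5g, -0.23 to 0.57 for Rnu6, -0.46 to 0.24 for Rnu7, -0.11 to 0.040 for Rny3, -0.15 to 0.0052 for Scarna17 and -0.16 to 0.22 for Scarna8. Between times in saline they were -0.053 to 0.34 for Snora16a, -0.021 to 0.27 for Snora2b, -0.0011 to 0.27 for Snord14e, -0.55 to 0.027 for Snord37 and -0.43 to 0.048 for Snord61, and in MPTP retina -0.022 to 0.51 for Snord15b. Rny3 ranged from -0.080 to 0.15 over both times and from -0.45 to 0.12 for the difference of effects.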
